A study of Homo sapiens with 14 samples.

Results

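The 6 genes of the GATA family, GATA1 to GATA6, were followed through 9 lists of ChIP-seq peaks from HS-SY-II, a human synovial sarcoma cell line. A gene's window was its RefSeq span on GRCh38 plus 20 kb on either side. Every peak that touched it was kept, so no measured value entered the choice of peaks within a window. The members themselves were chosen with earlier results of these data known. The family makes up 6 of the 20037 protein-coding genes that were placed in the same way. Its windows held 38, 31, 30, 42 and 43 of the 18037, 16021, 15330, 13677 and 15611 regions called for GLTSCR1 in DMSO and after 12, 24, 48 and 96 h, and 55, 63, 69 and 80 of the 24953, 28619, 24846 and 26405 called for the SS18::SSX fusion in DMSO and after 12, 24 and 48 h.

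GLTSCR1 belongs to GBAF, one of the chromatin remodelling complexes of the BAF class, and SS18::SSX is the fusion oncoprotein of synovial sarcoma, here carrying an HA tag that the antibody recognises. Cells received DMSO or 100 nM WA-68, a PROTAC that sends the GBAF subunit BRD9 for degradation. All groups share the HS-SY-II line, which the labels give as wild type, grown in DMEM with 10% FBS. The labels do not say how the tag was introduced, and give no time for DMSO. With 1 library in every group, no condition was tested against another, and time in culture and time of WA-68 cannot be told apart. The 5 input samples were not analysed here, and the reads behind each list were not counted, so depth is unknown and a missing region means only that no call passed the caller's threshold. A fold is the authors' own enrichment value for a peak, to be read within its own list. Folds from different lists are printed side by side for each place, and are not a time course of binding strength.

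GATA factors are zinc finger proteins that bind the DNA sequence from which they take their name. GATA1, GATA2 and GATA3 are best known in blood: GATA1 drives red cell and platelet development, GATA2 maintains blood stem cells and GATA3 specifies T cells and also acts in breast, kidney and inner ear. GATA4, GATA5 and GATA6 act in heart, gut and other mesodermal and endodermal organs, and in many tissues such developmental regulators lie in CpG-rich chromatin controlled by Polycomb and BAF complexes. Peaks show where a protein was found, not whether the gene was transcribed.

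Binding near 5 of the 6 genes was found in every list, and it differed between the antibodies after WA-68. Fusion regions covered 15.3% to 66.0% of the windows of GATA2 to GATA6 in DMSO, and 16.3% to 67.7% in the later lists. GLTSCR1 regions covered 6.9% to 23.9% of those windows in DMSO. At GATA2 they covered 1.02% to 2.25% after WA-68, while at GATA6 they covered between 7.83% and 12.3%. GATA1 alone had no fusion region in any list, as did 51.1% of protein-coding genes, and no region of either antibody touched its span.

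The 250 bases before a gene's first base are shown for a start of each member in the RefSeq promoter table (GRCh38.p14), which matched 4 of the 6 members, all but GATA4 and GATA5. They are chosen because they set a start with no call in any list (GATA1) beside one called by the fusion throughout and by GLTSCR1 in DMSO alone (GATA2), and 1 called in all 9 lists (GATA6). For GATA3 the start beside its antisense gene and the last start, which no list covered, are both given. Capitals mark CG dinucleotides, and each sequence runs 5′ to 3′ on the gene's strand.
GATA1, chrX:48786340-48786589, plus strand: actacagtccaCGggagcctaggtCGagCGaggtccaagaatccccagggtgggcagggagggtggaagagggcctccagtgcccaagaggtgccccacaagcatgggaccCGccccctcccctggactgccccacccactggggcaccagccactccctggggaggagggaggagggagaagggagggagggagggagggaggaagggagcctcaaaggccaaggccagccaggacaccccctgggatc
GATA2, chr3:128493202-128493451, minus strand: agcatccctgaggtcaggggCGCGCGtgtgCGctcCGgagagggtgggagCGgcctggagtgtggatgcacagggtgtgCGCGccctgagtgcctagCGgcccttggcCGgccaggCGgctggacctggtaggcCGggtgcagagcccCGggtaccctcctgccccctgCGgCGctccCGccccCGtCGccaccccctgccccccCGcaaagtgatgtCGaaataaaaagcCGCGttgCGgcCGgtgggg
GATA3, chr10:8053391-8053640, plus strand: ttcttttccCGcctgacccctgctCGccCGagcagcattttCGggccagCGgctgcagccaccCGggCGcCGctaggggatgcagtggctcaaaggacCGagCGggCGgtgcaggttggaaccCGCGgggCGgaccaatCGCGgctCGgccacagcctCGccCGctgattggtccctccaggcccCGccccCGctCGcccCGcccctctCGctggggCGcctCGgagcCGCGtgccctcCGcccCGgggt
GATA3 last start, chr10:8060207-8060456, plus strand: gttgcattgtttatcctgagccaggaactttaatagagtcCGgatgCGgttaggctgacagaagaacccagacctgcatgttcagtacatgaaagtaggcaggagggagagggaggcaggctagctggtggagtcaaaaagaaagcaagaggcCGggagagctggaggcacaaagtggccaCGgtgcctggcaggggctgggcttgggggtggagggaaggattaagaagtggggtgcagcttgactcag
GATA6, chr18:22169339-22169588, plus strand: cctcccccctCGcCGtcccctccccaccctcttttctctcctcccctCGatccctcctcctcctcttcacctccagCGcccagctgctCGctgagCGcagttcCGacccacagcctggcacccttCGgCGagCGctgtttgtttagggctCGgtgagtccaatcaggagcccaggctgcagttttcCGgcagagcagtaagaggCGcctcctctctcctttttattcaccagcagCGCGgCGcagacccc

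These stretches hold 4 CG dinucleotides at GATA1, 24 at GATA2, 30 and 4 at the GATA3 starts and 16 at GATA6, against a median of 11 over 35116 starts of 27305 genes. The GATA1 start lay in 0 of 5 GLTSCR1 lists and 0 of 4 fusion lists. The GATA2 start lay in 1 GLTSCR1 list, DMSO, which held 12.8% of all starts, and in all 4 fusion lists, which held 2.59%, and so did the gene's other start at 128488530, whose upstream stretch has 18 CG. The GATA3 start at 8053641 lay in 3 GLTSCR1 and 4 fusion lists, and the last start at 8060457 in none. The GATA3 starts not printed did not follow the order of CG count. The start at 8054688, with 26 CG, lay in 0 GLTSCR1 lists and 1 fusion list. That at 8045333, with 11 CG, lay in 3 and 2, that at 8049854, with 16, in 3 and 4, and that at 8051236, with 15, in 2 and 2. The GATA6 start lay in all 5 GLTSCR1 lists, as did 1.36% of the starts in the table, and in all 9 lists, as did 0.282%. CG count moved with calling in DMSO across the table: a start lay in the GLTSCR1 DMSO list for 3.8% of starts with under 10 CG and 22.4% of those with 20 or more, and in the fusion DMSO list for 2.97% and 12.8%. Starts with 10 to 19 CG, where GATA6 belongs, had the highest share in all 9 lists, 0.605%, against 0.119% with fewer and 0.325% with more. The part of CG count in the differences between members was not tested. The letters GATAA, searched on both strands, occur once before the last GATA3 start and in none of the other 4 printed stretches, and in 20.4% of all upstream stretches; AGATAA, which contains it, is in none of the 5 and in 9.17% of all.

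In DMSO, GLTSCR1 had a region in the windows of all 6 members, against 50.3% of protein-coding genes, and the fusion in 5 of 6, against 33.9%. The numbers of members with a GLTSCR1 region after 12, 24, 48 and 96 h were 6, 5, 5 and 5, against 47.2%, 36.6%, 28.8% and 35.8% of genes. For the fusion they were 5 in each later list, against 33.6%, 30.9% and 32.7%. GATA2 to GATA6 had a GLTSCR1 region in all 5 lists, against 19.5% of genes, a fusion region in all 4, against 20.1%, and both in all 9, against 11.6%. With windows of only 1 kb around the gene ends, the members with GLTSCR1 in all 5 lists numbered 1 in place of 5. Those with it at 12, 24 and 48 h numbered 2, 3 and 3, while the fusion count stayed at 5. The share of all protein-coding genes was not counted for these 1 kb windows, so these counts have no background to be set against. Among the 13485 genes with spans of 5 to 100 kb, a range chosen after the data were seen because it holds every member, the share with both antibodies in all 9 lists was 9.26%. GATA5 and GATA3 had the highest GLTSCR1 coverage in DMSO, 23.9% and 23.7%, followed by GATA6 at 12.2%, GATA2 at 10.8%, GATA4 at 6.9% and GATA1 at 1.54%. The first 2 of these are close, and with 1 library a group no spread tells neighbours in this order apart. Over all genes with a region the median was 1.297%. The fusion order in DMSO was GATA5 at 66.0%, GATA6 at 25.1%, GATA3 at 25.0%, GATA2 at 19.2% and GATA4 at 15.3%, with a median of 1.551% over genes with a region. Only 38 genes had more of their window covered by the fusion in DMSO than GATA5.

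**Figure D1:**
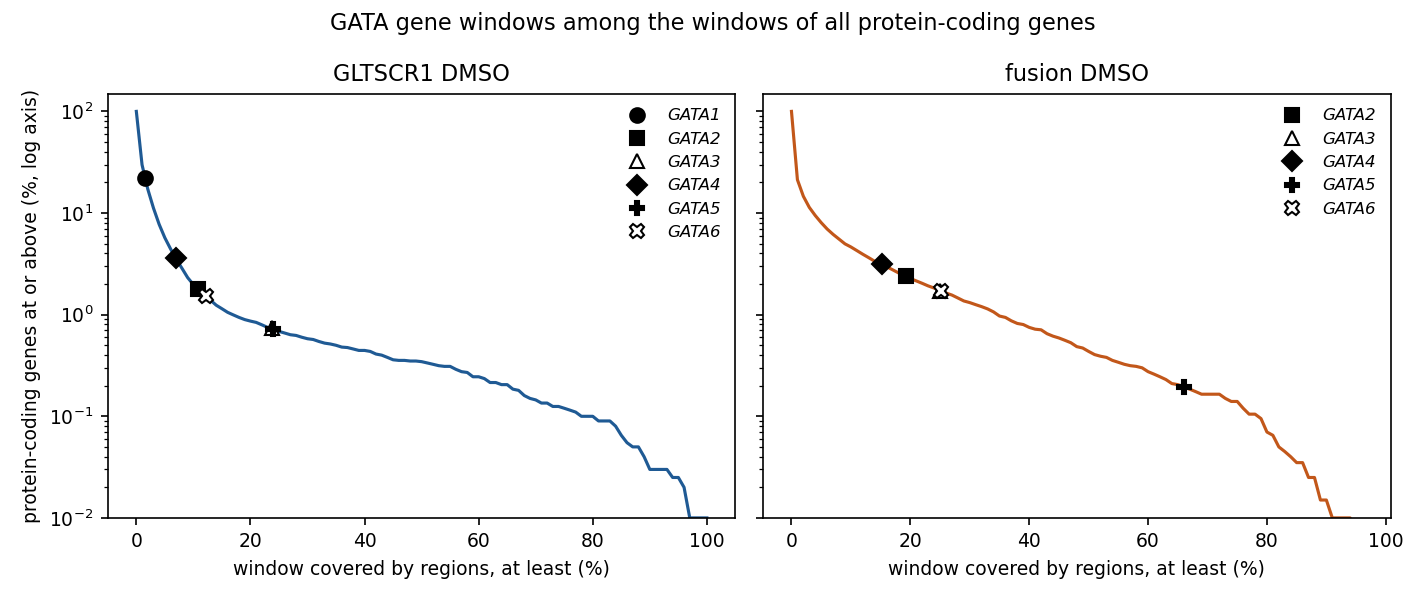
Share of all 20037 protein-coding genes (vertical, %, log axis) whose window was covered at least as much as the value on the horizontal axis (%), for the GLTSCR1 and the fusion DMSO lists; markers are the GATA genes with a region, 1 library each. GATA5 lies at 66.0% in the fusion list and GATA1 has no marker there.

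After WA-68 the GLTSCR1 coverage of 5 members, GATA1 to GATA5, was below DMSO in all 4 later lists, as it was for 68.0% of the genes with a region in DMSO. GATA6 was the exception, at 12.3% after 48 h against 12.2% in DMSO. The list as a whole also covered less, 16.77 Mb in DMSO and 8.548 to 11.11 Mb later. Relative to its own DMSO value, GATA2 kept 0.208, 0.0946, 0.106 and 0.103 of its covered share at 12, 24, 48 and 96 h, GATA3 kept 0.339, 0.392, 0.576 and 0.59, and GATA6 kept 0.829, 0.643, 1.01 and 0.864. The median over genes was 0.633, 0.33, 0.0839 and 0.31. At 48 h GATA2, at 0.106, thus lay near that median, while GATA3, GATA4, GATA5 and GATA6, at 0.576, 0.33, 0.582 and 1.01, lay above it. GATA1, at 0.0, lay below. The genes behind the median are not a like set, since their windows were covered to a median of 1.297% in DMSO, against 6.9% to 23.9% at GATA2 to GATA6. Of the fusion, 0 of 5 members were below DMSO in all 3 later lists, against 39.2% of genes with a fusion region in DMSO. GATA4 was above DMSO in each later list, at 1.29, 1.24 and 1.3 times its DMSO share, and so was GATA6, at 1.19, 1.16 and 1.17 times. The medians over genes were 0.881, 0.742 and 0.819. The genes behind these medians and the 39.2% are again not a like set. Their median fusion coverage in DMSO was 1.551%, against 15.3% to 66.0% at GATA2 to GATA6. Summed over the genome, fusion regions spanned 36.41 Mb at 12 h, more than the 33.94 Mb of DMSO. At 24 and 48 h they spanned less, 30.32 and 33.36 Mb. Whether the members differ from genes of similar fusion coverage was not tested.

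**Figure D2:**
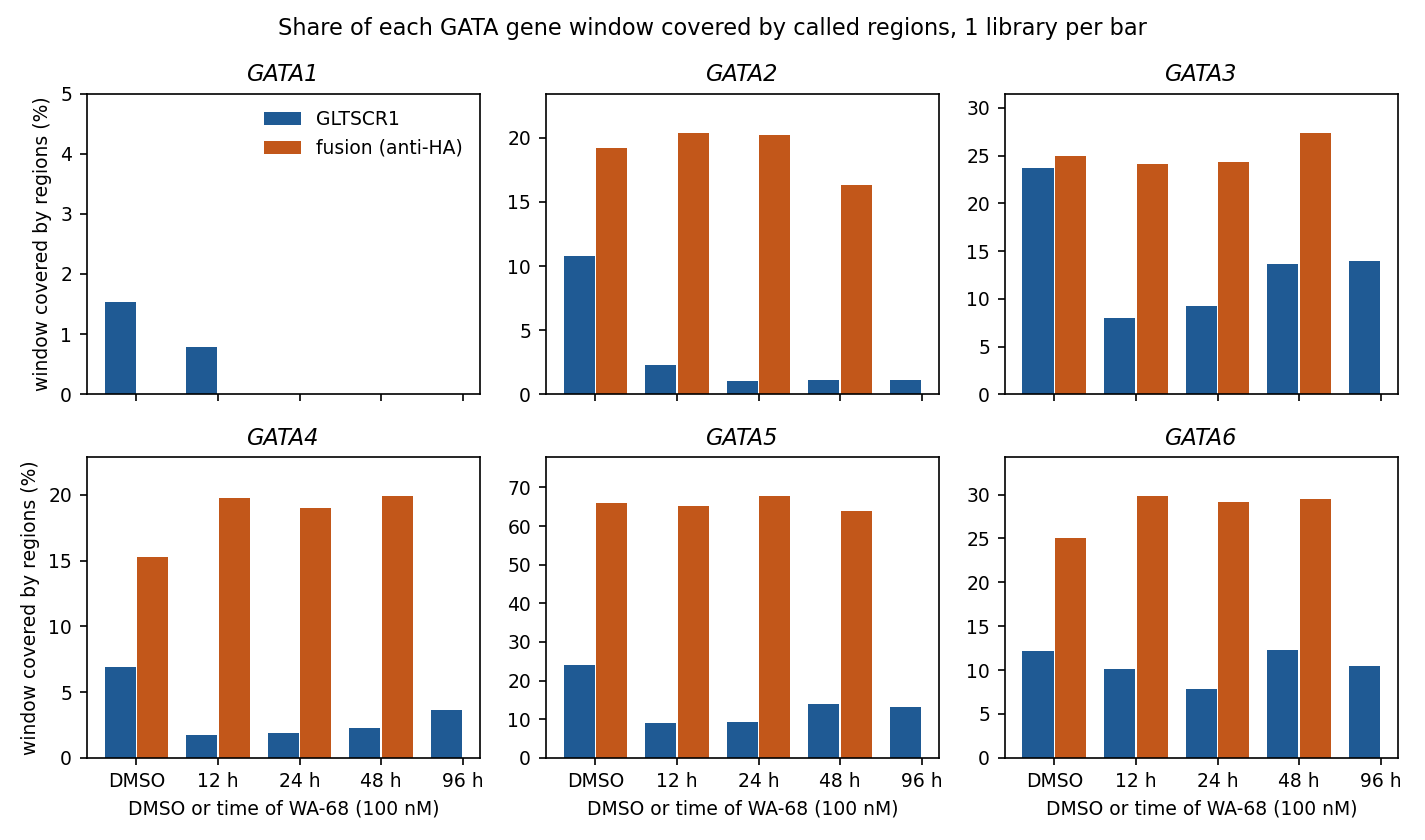
Percent of each gene window covered by called regions (vertical, with a scale of its own for each gene) in DMSO and by time of WA-68 (horizontal), with GLTSCR1 in blue and the fusion in orange, 1 library per bar; the fusion has no 96 h list. GATA2 shows the low blue bars after DMSO beside orange bars of 16.3% to 20.4%.

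GATA1 (chrX:48786590-48794311), the erythroid and megakaryocyte factor, had a region in 2 of 9 lists. Both were GLTSCR1 regions, in DMSO at 48800946 to 48801678 with a fold of 5.21 and after 12 h at 48800994 to 48801370 with a fold of 2.81, above only 1.05% of that list's regions. They lie over or just before the first start of its neighbour HDAC6, a cytoplasmic deacetylase, at 48801398. This pattern of GLTSCR1 in DMSO and 12 h alone, with no fusion, was found for 2.79% of protein-coding genes. The 34.4 kb of the window below that region, with the whole of GATA1 in it, was in no list.

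GATA2 (chr3:128479422-128493201, read from the minus strand), the stem cell factor, had little of its GLTSCR1 coverage left after WA-68. Fusion regions covered 20.4%, 20.2% and 16.3% of its window at 12, 24 and 48 h, against 19.2% in DMSO. Over the gene span alone the fusion covered 59.7% in DMSO and 58.6%, 54.8% and 47.7% later. In DMSO GLTSCR1 had 5 regions, of which the widest ran 4363 bp inside the gene, from 128487648 to 128492010, with a fold of 8.13, above 88.1% of its list. Of these 5, 1, 0, 1 and 1 were found again in the 12, 24, 48 and 96 h lists, and 4 were found in no later list. A DMSO region went unmatched in every later list for 26.0% of the GLTSCR1 list. Each later GLTSCR1 list held 2 regions in the window, covering 1.212, 0.551, 0.616 and 0.598 kb against 5.825 kb in DMSO. None of the GATA2 window was called in all 5 GLTSCR1 lists.

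Fusion calls lay over the same part of the gene in every list. In DMSO a single region of 8695 bp ran from 128485450 to 128494144 over both GATA2 starts and over the start of GATA2-AS1, the antisense RNA gene, with a fold of 11.5, above 96.8% of its list. The later lists held 10, 9 and 13 fusion regions in the window in place of 3, and covered 10.97, 10.85 and 8.761 kb against 10.31 kb. Their strongest regions had folds of 7.44, 6.38 and 6.56, above 87.9%, 80.4% and 80.8% of their lists. That of 48 h lay outside the gene, at 128497323 to 128498105. The 3 DMSO regions were found again in all 3 later lists, and 4822 bases were called in all 4. A stretch of at least 100 bp shared by the 4 fusion lists was found for 14.7% of protein-coding genes, and at GATA2 to GATA6. The longest at GATA2, 1530 bp from 128492100 to 128493629, contains the outer start.

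Each of the later GLTSCR1 lists placed 1 of its 2 regions at the same spot outside the gene, where DMSO had none. The shared stretch of 251 bp, chr3:128497852-128498102, lies 4.776 kb before the outer start, within GATA2-AS1. Its folds were 4.86, 6.04, 7.73 and 4.73 in order of time, above 49.0%, 74.0%, 86.8% and 44.5% of their lists, and the 4 summits lay within 176 bp. The nearest GLTSCR1 region in DMSO ended at 128497059. The fusion was also called there after WA-68 and not in DMSO, over 417 bp from 128497549 to 128497965, with folds of 3.63, 4.22 and 6.56 in order of time. The nearest fusion region in DMSO ended at 128497548, directly beside it. A stretch of at least 100 bp called for GLTSCR1 in all 4 later lists and not in DMSO was found in the windows of 4.93% of protein-coding genes, and among the members at GATA2, GATA5 and GATA6. At GATA5 it spans 62446568 to 62446814 and at GATA6 22192174 to 22192477, where the fusion was called in all 4 lists. Both of these begin at the base after a GLTSCR1 region of DMSO. At −log10 q of at least 5, GLTSCR1 lists with a region over the stretch numbered 4 at GATA2, 3 at GATA5 and 3 at GATA6. The numbers were the same with lists cut to equal length.

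**Figure D3:**
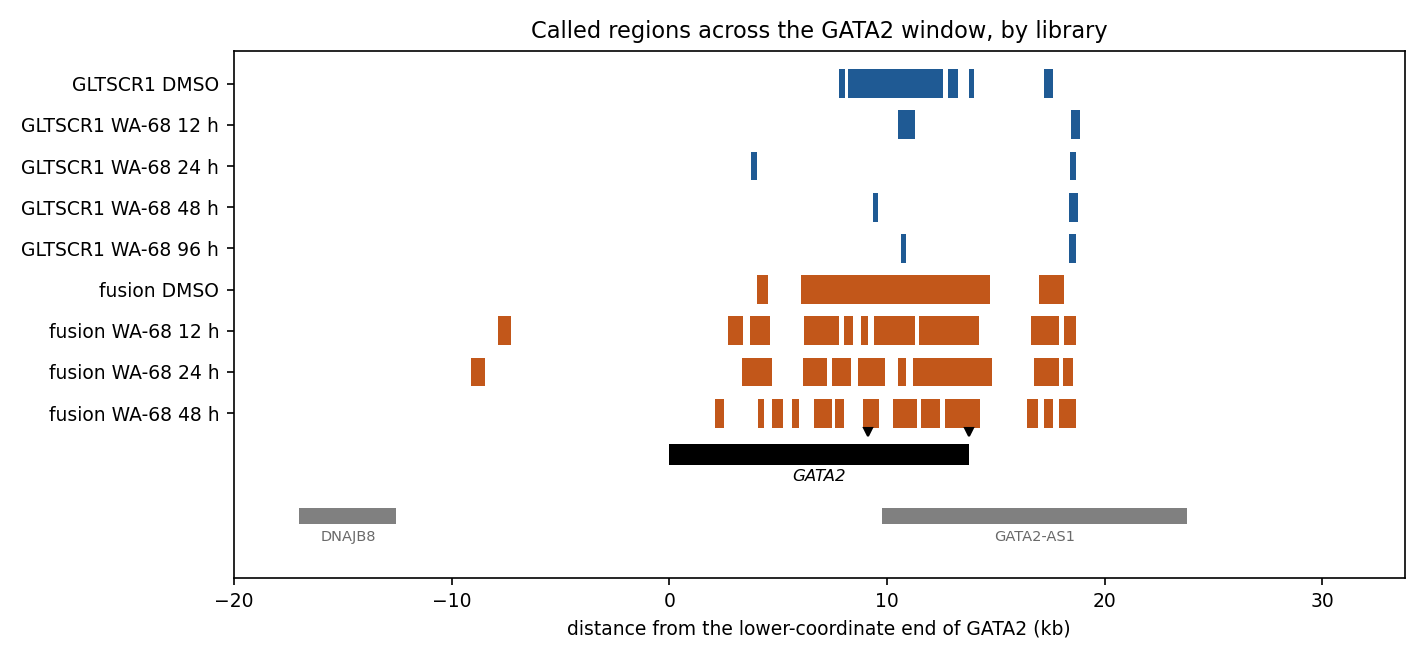
Called regions over the GATA2 window (horizontal, kb from the lower-coordinate end of the gene, which is read from right to left) in the 9 lists (rows), with GLTSCR1 in blue, the fusion in orange, gene spans in black and grey and RefSeq starts as triangles. The later GLTSCR1 rows share a region near 18.55 kb and hold 1 other each.

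GATA3 (chr10:8045333-8075198), the T cell and luminal breast factor, had GLTSCR1 at the same 4 places in all 5 lists. The strongest in DMSO was about 10 kb before its first start, where a run of 2252 bp, 8034263 to 8036514, was called in all 5 GLTSCR1 lists. The folds there were 14.8 in DMSO and 8.37, 6.76, 8.64 and 9.22 later, and the DMSO value stood above 98.4% of its list. The 5 summits lay within 265 bp, and the fusion was called over the same place with folds of 7.29, 7.22, 7.98 and 8.57. The run overlaps the lower-coordinate end of LOC105376394, a long noncoding RNA gene.

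Another of these places lies inside the GATA3 span, over the start of the antisense gene GATA3-AS1. GLTSCR1 summits in all 5 lists fell between 8053390 and 8053465, a spread of 75 bp around the GATA3-AS1 starts at 8053422, 8053449 and 8053484. Their folds were 8.36, 4.99, 4.3, 9.47 and 4.61 in DMSO and at 12, 24, 48 and 96 h, and the 48 h value was the highest of the GATA3 regions in its list. The fusion summits lay between 8053696 and 8053788, past the GATA3 start at 8053641, with folds of 4.17, 3.86, 6.26 and 8.43. The strongest summits within 250 bp of this stretch thus fell on the antisense side for GLTSCR1 and past the GATA3 start for the fusion. In all, 3123 bases of the GATA3 window were called in all 9 lists, in 5 stretches of at least 100 bp. A stretch of that kind was found for 5.07% of protein-coding genes, and 1 shared by the 5 GLTSCR1 lists for 13.9%; among the members both were found at GATA3, GATA5 and GATA6.

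All 7 DMSO regions of GLTSCR1 at GATA3 were found again in at least 1 later list, 7 at 24 h and 3 in every one, while the covered length was 16.56 kb in DMSO and 5.608, 6.487, 9.537 and 9.763 kb later. The longest stretch called for GLTSCR1 in DMSO alone was 1911 bp, 8045770 to 8047680, just inside the gene. Such stretches of at least 100 bp were found at all 6 members, against 40.4% of genes, and for the fusion at 5, against 27.1%. The fusion covered 17.49, 16.83, 16.98 and 19.12 kb. Past 8055865, 10.5 kb into the gene, neither antibody was called anywhere in the window, so 39.3 kb with most of the gene body was in no list.

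**Figure D4:**
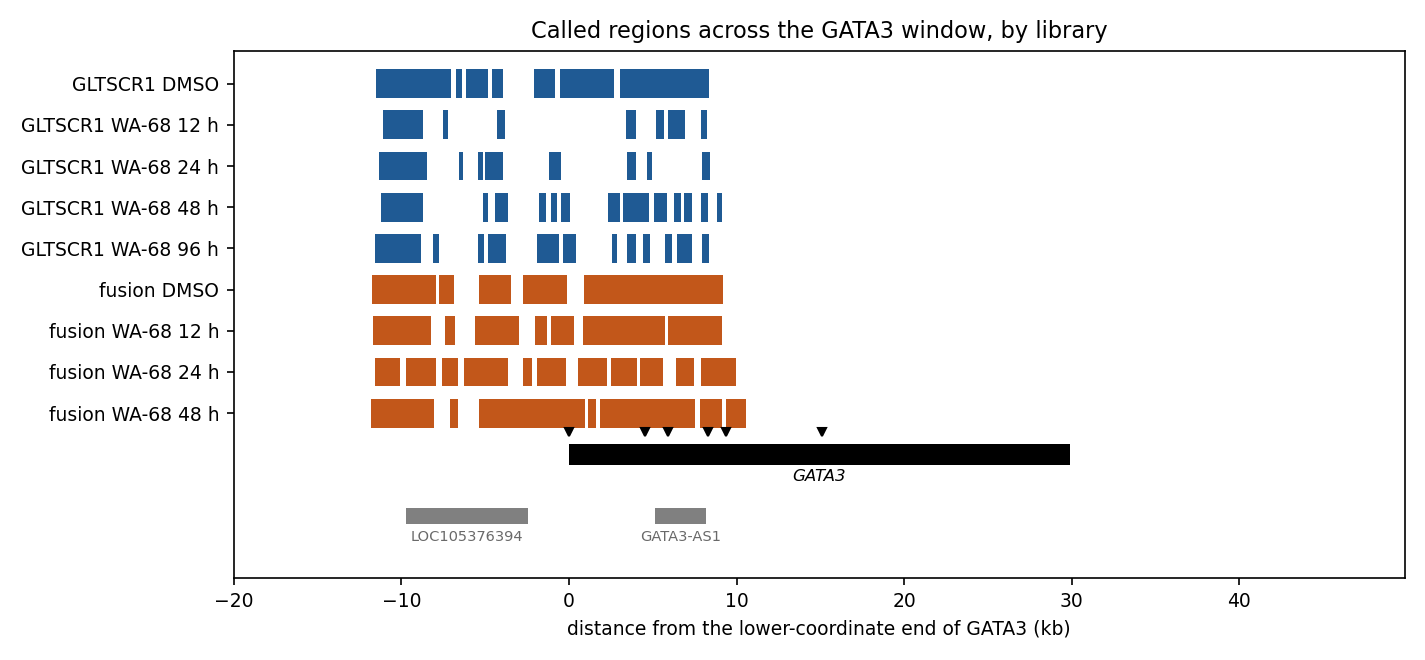
Called regions over the GATA3 window (horizontal, kb from the lower-coordinate end of the gene, its first start) in the 9 lists (rows), with colours and gene marks as in the map of GATA2. No row has a region past 10.5 kb.

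GATA4 (chr8:11676935-11760002), a heart and foregut regulator, has the longest span of the family, 83.07 kb, and its regions were scattered through the gene. GLTSCR1 had 8 regions in DMSO and 6, 3, 6 and 10 later, and the fusion 18 in DMSO and 18, 21 and 22 later. The widest GLTSCR1 region in DMSO, 11699598 to 11704313, had a fold of 8.95. At that place each later GLTSCR1 list kept a narrower region, with folds of 5.45, 5.12, 5.61 and 5.58, and the fusion was called in all 4 lists over 2172 bp from 11701837 to 11704008. Only 176 bases were called in all 9 lists. The covered lengths of GLTSCR1 were 8.494 kb in DMSO and 2.165, 2.3, 2.799 and 4.472 kb later, and the 96 h list matched 6 of the 8 DMSO regions against 1, 2 and 1 at 12, 24 and 48 h.

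A second late GLTSCR1 place lies 69.53 kb above the lower-coordinate end of GATA4, inside the gene. There 297 bp, chr8:11746321-11746617, were called at 24, 48 and 96 h and in neither DMSO nor 12 h, with folds of 5.33, 4.71 and 6.91 and summits within 71 bp. The 96 h region stood above 81.7% of its list. Unlike the GATA2 place, it had no fusion region in any of the 4 lists. A stretch of this timing was found in the windows of 3.06% of protein-coding genes, and among the members at GATA3 and GATA4. The fusion had 6 stretches of at least 100 bp in the GATA4 window that were in all 3 later lists and not in DMSO. Such stretches were found for 11.6% of protein-coding genes, and among the members at GATA2, GATA4, GATA5 and GATA6.

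GATA5 (chr20:62463497-62475995), which acts in the endocardium and gut, stood in the broadest fusion domain of the family. Fusion regions covered 34.65, 34.23, 35.52 and 33.5 kb of its 52.5 kb window, and 25.1 kb was called in all 4 lists. The widest single regions measured 9.141, 6.341, 15.8 and 8.166 kb, the third of them after 24 h. The longest run in no list was 3.57 kb, 62465882 to 62469453, in the middle of the gene. Near the higher-coordinate end of the gene, the fusion summits of all 4 lists fell within 114 bp, between 62474281 and 62474395, with folds of 10.3, 9.22, 11.4 and 11.8.

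GLTSCR1 at GATA5 lay almost wholly inside that domain, with 50 bases called in any GLTSCR1 list and in no fusion list. It covered 12.56 kb in DMSO and 4.668, 4.931, 7.31 and 6.944 kb later, in 11, 8, 9, 10 and 13 regions. Of the 11 DMSO regions, 5, 6, 8 and 9 were found again at 12, 24, 48 and 96 h, and 1 in no later list. Just 116 bases, 62446452 to 62446567, were called in all 5. At the higher-coordinate end of the gene every GLTSCR1 list had a region, with folds of 6.9, 5.4, 6.54, 6.63 and 6.51, but the summits ranged over 1261 bp.

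GATA6 (chr18:22169589-22202528), the endoderm and heart factor most like GATA4 in its known roles, kept the largest part of its own GLTSCR1 coverage of DMSO among the 6 genes in each later list. In DMSO a region of 6517 bp, 22164647 to 22171163, covered the start together with the start of GATA6-AS1, the antisense RNA gene, with a fold of 10.4, above 94.9% of its list. Its later counterparts over the start had folds of 8.76, 4.55, 9.41 and 6.25, and the base at the start was called in all 5 lists. Covered length was 8.88 kb in DMSO and 7.362, 5.709, 8.946 and 7.672 kb later. By number of regions GATA6 did not lead in each list. Of its 6 DMSO regions of GLTSCR1, 4, 4, 4 and 3 were found again at 12, 24, 48 and 96 h. That share was above those of GATA2 to GATA5 at 12 h, but below GATA3 at 24 h and below GATA3 and GATA5 at 48 h. At 96 h GATA3, GATA4 and GATA5 were higher, with 6 of 7, 6 of 8 and 9 of 11, and GATA1 and GATA2 lower. In all, 2758 bases were called in all 9 lists, among them 22167351 to 22168622 inside GATA6-AS1 and 22169028 to 22169883 over the GATA6 start. The fusion's strongest DMSO region was inside the gene, at 22182213 to 22184007, with a fold of 8.09, and the regions there later had folds of 7.4, 7.1 and 8.94. The one fusion region of all members' 55 that no later list matched lay 11.76 kb beyond the GATA6 end, at 22213966 to 22214608.

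**Figure D5:**
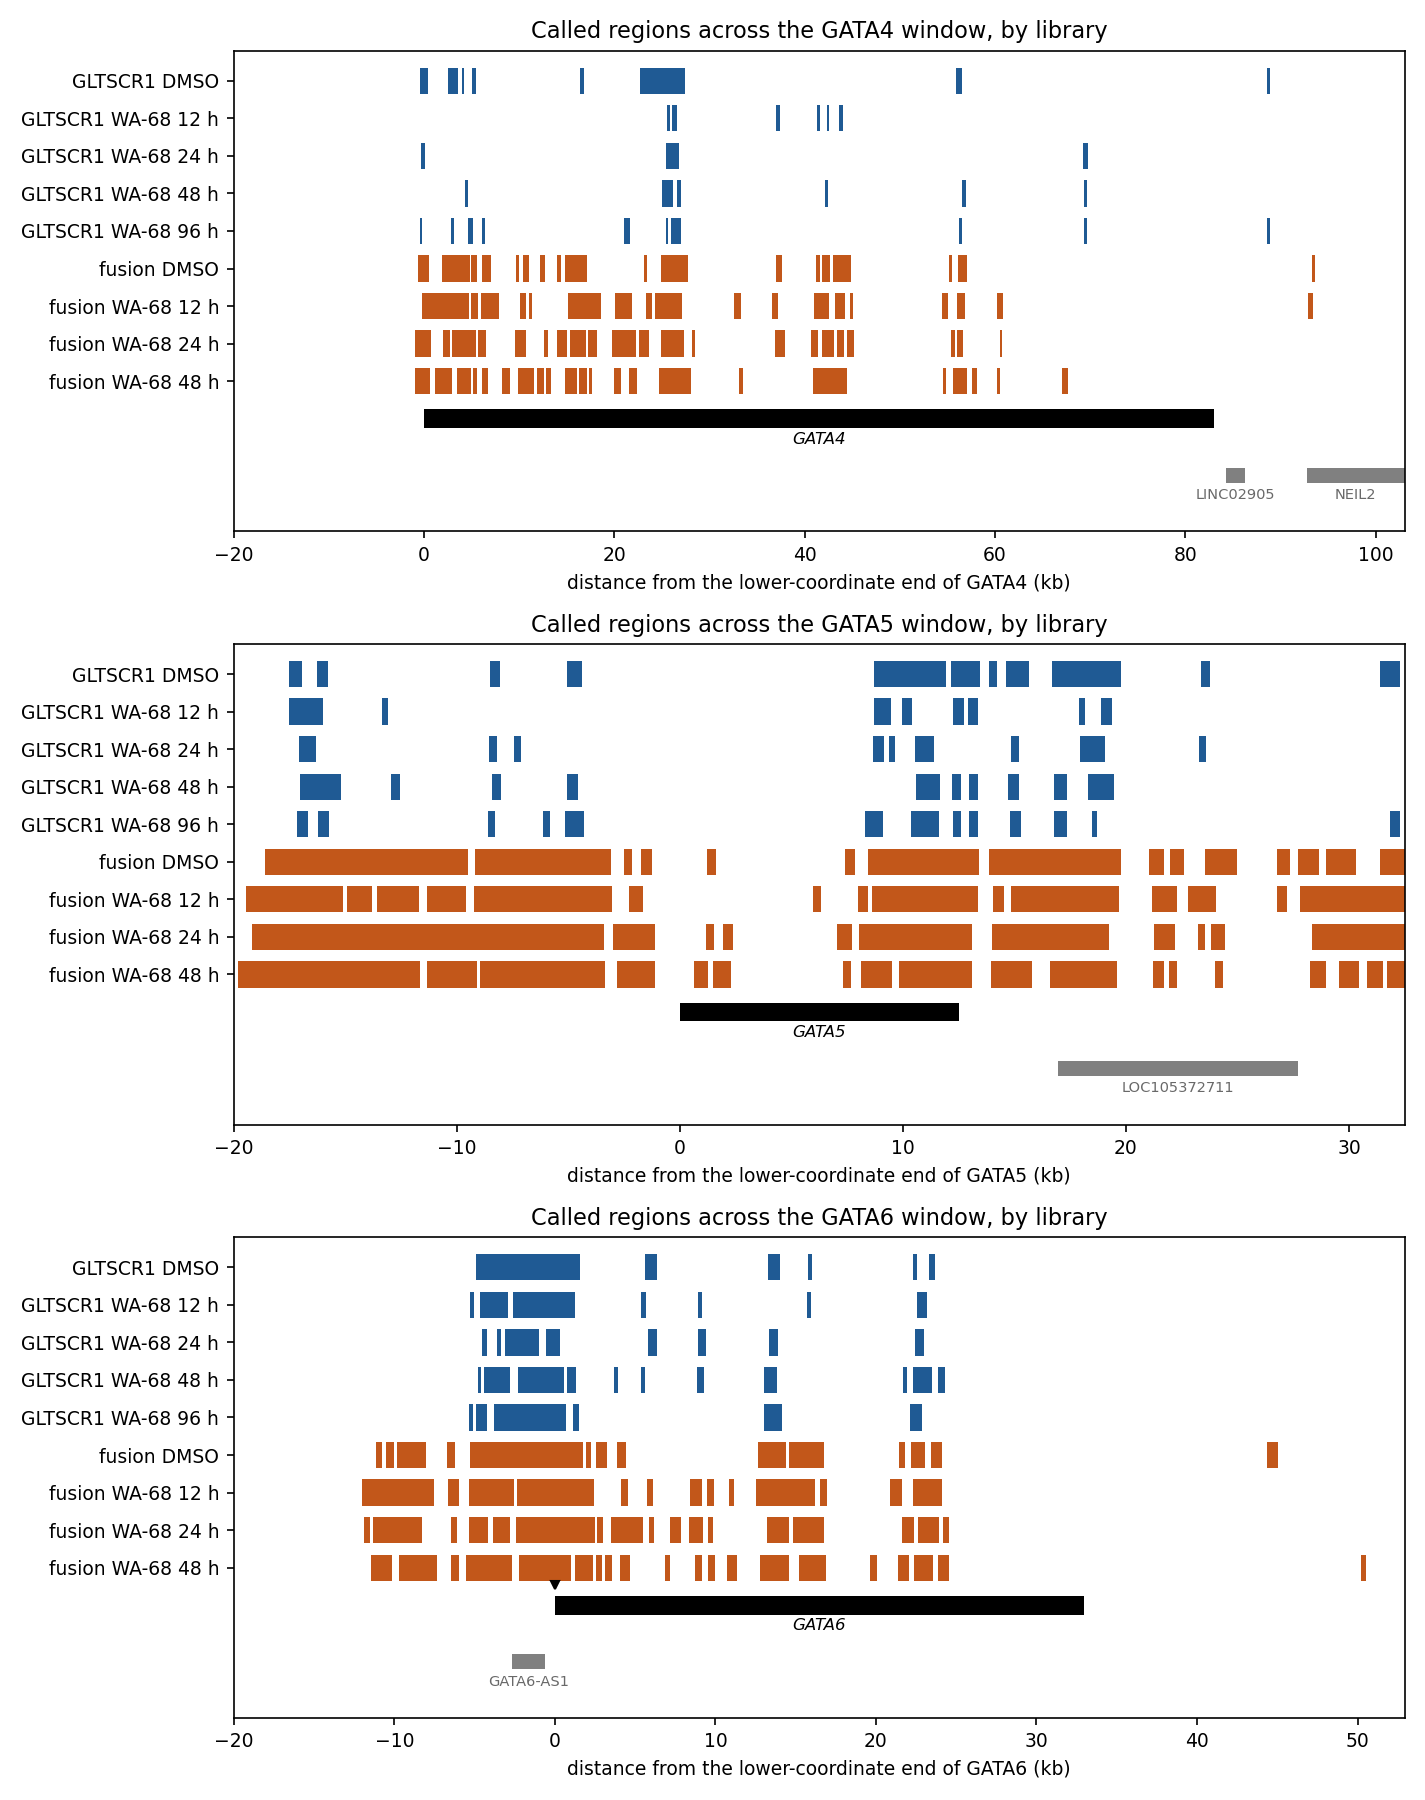
Called regions over the GATA4, GATA5 and GATA6 windows (horizontal, kb from the lower-coordinate end of each gene) in the 9 lists (rows), with colours and gene marks as in the map of GATA2; no starts are drawn for GATA4 and GATA5. The fusion rows fill most of the GATA5 window, and every row covers the GATA6 start.

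Over all 6 windows, 39.5% of the 38 GLTSCR1 regions of DMSO were found again at 12 h (exact 95% binomial interval 24.0 to 56.6), against 55.8% of the whole list. At 24 and 48 h 19 and 20 of the 38 were found, against 47.6% and 43.2% of the list. After 96 h the share was 65.8% (48.6 to 80.4), against 48.6%. The share found in every later list was 23.7%, against 26.7%. Of the 55 fusion regions of DMSO, 78.2% were found in every later list (65.0 to 88.2), against 50.8%, and 1.82% in none, against 14.3%. The intervals count each region as independent, which neighbouring regions are not, and they cover counting error only.

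GLTSCR1 regions in the windows overlapped a fusion region of the same time in 89.5% of 38 in DMSO, and in 93.5% of 31, 93.3% of 30 and 92.9% of 42 at 12, 24 and 48 h, against 59.3%, 55.2%, 54.1% and 66.7% of the whole lists. In reverse, 45.5%, 33.3%, 31.9% and 30.0% of the fusion regions overlapped GLTSCR1, against 36.2%, 24.2%, 26.6% and 25.3%. The shares depended on how a match was defined. The median fusion region was 857 bp wide in the windows and 675 bp in the whole DMSO list, and when the strongest summits had to lie within 250 bp the share of GLTSCR1 regions with the fusion was 23.7%, 38.7%, 36.7% and 21.4% in the windows in order of time, and 22.6%, 22.4%, 22.3% and 26.6% in the whole lists, so the 48 h value fell below its list. By the same measure 3.64% of the fusion regions of DMSO were matched in every later list, against 9.0% of the list. The median fold in DMSO was 4.87 in the windows and 4.611 over the list for the fusion, and 5.07 and 4.939 for GLTSCR1. In the later GLTSCR1 lists it was lower in the windows, at 4.06, 4.11, 4.73 and 4.35 against 4.91, 4.83, 5.04 and 4.93.

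Genes of the same pathway were read from lists. Of 15 partners and cofactors of GATA factors, GLTSCR1 had a region at 11 in DMSO and 11, 9, 10 and 10 later, against 50.3%, 47.2%, 36.6%, 28.8% and 35.8% of genes. The fusion had one at 13, 12, 10 and 11, against 33.9%, 33.6%, 30.9% and 32.7%. Regions of both in all 9 lists were found at 7 of them, against 11.6% of genes, with ERG, the endothelial and blood ETS factor, LMO4, a LIM-only adaptor, and ZFPM2, the FOG partner of GATA4, as those of highest fusion fold in DMSO, at 9.25, 8.77 and 8.74. In DMSO, GLTSCR1 covered 0.8702%, 7.491% and 0.8316% of the windows of ERG, LMO4 and ZFPM2, and the fusion 1.632%, 11.18% and 1.505%. The medians over genes with a region were 1.297% and 1.551%. A longer gene has a longer window, and the 11.6% was not matched to the spans of these partners. TAL1, the blood stem cell factor that shares complexes with GATA1, had fusion regions in 4 lists and GLTSCR1 in 0. Of 11 cardiac and mesodermal partner factors, 3 were in all 9 lists, against the same 11.6%: NR2F2, an orphan nuclear receptor, and the pioneer factors FOXA1 and FOXA2, whose windows were covered by the fusion in DMSO to 63.59%, 30.47% and 5.286%. Of the 11 factors, GLTSCR1 had a region at 7 in DMSO and at 5, 4, 6 and 6 later. The fusion had one at 6 in DMSO and at 7, 6 and 7 later. The shares of genes are those given above for the partners. The fusion was in no list for 4 of the 11, against 51.1% of genes. TBX5 and HAND2, heart regulators of that list, had no region in any list.

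Of 9 other genes that encode GATA-type zinc fingers, GLTSCR1 had a region at 9 in DMSO and 9, 8, 4 and 6 later, against 50.3%, 47.2%, 36.6%, 28.8% and 35.8% of genes, and the fusion at 7, 6, 5 and 6, against 33.9%, 33.6%, 30.9% and 32.7%. TRPS1, a repressor of GATA sites, and MTA1, a NuRD subunit, were in all 9, against 11.6% of genes, and MTA3, another NuRD subunit, in 8. A list of 7 synovial sarcoma genes was read only to describe the peak lists, and does not test the identity of the cells. Regions near 5 of them, SOX2, BCOR, TLE1, TWIST1 and BCL2, were found in all 9 lists, against 11.6% of genes. PDGFRA was in 7 and CD99 in 0.

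The genes whose coverage over the 9 lists was most like each member's were named by the mean absolute difference in percent of window covered. For GATA2 they were OTX2, SOX3 and FEV, at 1.04, 1.19 and 1.34 points, and for GATA3 NEUROD2, SERTAD4 and HOXC13, at 2.01, 2.06 and 2.26. For GATA4 they were MYOM2, TSPEAR and TXNRD2 at 0.902, 1.09 and 1.11 points, and MYOM2 shares its chromosome. For GATA5 they were SAMD11, HOXD8 and DLL1 at 3.51, 3.54 and 3.58, and for GATA6 HES4, LRIG3 and SIM2 at 2.26, 2.39 and 2.63. For GATA1 they were CRYAB, SPINK4 and APOA1 at 0.0128, 0.0133 and 0.0143, all with a small GLTSCR1 share in DMSO and 12 h alone. The lists are the same libraries for every gene, so these likenesses describe the 9 lists and nothing more.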

How the data were processed

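ChIP-seq peak lists of 9 libraries (5 GLTSCR1, 4 fusion) were used. The submitters' processing notes name BWA, MACS2, Picard, SAMtools, deepTools, cutadapt, Trim Galore, FastQC, bcl2fastq and GRCh38/hg38; their versions and settings were not given in the sources used here. Each deposited list gives, from the authors' peak caller, a fold enrichment (a ratio over background), a −log10 p-value, a −log10 q-value (lowest 3.0 in the lists) and a score. Peak names show that calls were made per library.

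Entries with equal coordinates were joined to 1 region with the strongest summit by fold, on chromosomes 1 to 22, X and Y. Windows came from the RefSeq gene table (GRCh38.p14) plus 20 kb. A region was called found again at an overlap of 1 bp. A rank, printed as above a percent of the list, is the region's place by fold, counted from the lowest, in percent of all regions. It counts the region itself, and regions of equal fold share their mean place. Named were all 6 members, their neighbours, regions strongest in DMSO, shared by all lists or new after WA-68, the 3 most alike genes, and up to 3 genes a list by lists and DMSO fold, plus TAL1, TBX5, HAND2, PDGFRA and CD99, chosen after their values were seen. The members and lists were chosen with earlier results of these data known. Overlap code was tested on simulated data. Binomial intervals are exact (Clopper-Pearson, 95%). Python 3.11.15, pandas 2.3.3, numpy 2.4.6 and scipy 1.17.1 were used.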

Additional observations from a re-analysis of the deposited data

How the results depend on the processing

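Alternatives were gene span alone, 50 kb flanks, 1 kb around gene ends, −log10 q of at least 5, lists of equal length, merging within 500 bp, 50% overlap and summits within 250 bp. Of 127 group values, 107 stayed within 1.5 times (counts) or the binomial interval (shares) of the value given and 20 did not. With summits within 250 bp, 4 of the shares that were above the whole list came out below it: fusion at 12 h (30.9% against 33.5%) and in every list (3.64% against 9.0%), GLTSCR1 at 48 h (26.3% against 29.6%) and GLTSCR1 with the fusion at 48 h (21.4% against 26.6%); GLTSCR1 at 24 h equalled it (31.6%). Of 87 values for single genes, 79 stayed and 8 did not; GATA1 had GLTSCR1 in 0 lists over its span and in 4 with 50 kb flanks, where the fusion had 2. Within 1 kb of the gene ends, members with GLTSCR1 numbered 2, 3 and 3 at 12, 24 and 48 h, and 1 in every list, with no count over all genes for such windows. With summits within 250 bp, GLTSCR1 regions of DMSO found again made up 21.1%, 31.6%, 26.3% and 39.5% at 12, 24, 48 and 96 h and 5.26% in every list. For the fusion these were 30.9%, 40% and 38.2%, and 3.64% in every list. The GLTSCR1 regions with a fusion summit made up 23.7%, 38.7%, 36.7% and 21.4% in DMSO and at 12, 24 and 48 h. With 50% overlap the fusion values were 72.7% and 83.6% at 12 and 24 h, and 60% in every list. The summit rule does not ask for a shared base. No replicate could be left out, since each group is 1 library. No paired analysis was possible because each group has 1 library and no test was made. Depth is unknown, and it can move how many regions pass the caller's threshold and how wide they are; its part was not tested.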
